A study of Homo sapiens with 9 samples.

Results

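The comparison set HEK293 cells that received either of 2 nuclear regulators, Aire or MBD-VP16, against HEK293 cells that received the empty vector, and asked which transcripts both proteins moved in the same direction. All 9 arrays of the study entered it: 3 labelled Aire, 3 labelled MBDVP16 and 3 labelled PCMV (vector). A gene counted as a shared rise or fall when the pooled difference (the average of the Aire and MBD-VP16 means minus the vector mean, in log2 units) passed limma at a Benjamini-Hochberg adjusted p under 0.05, and when both group means also lay on the same side of every vector array. Of 17769 genes, 899 were shared rises and 1478 were shared falls by this definition. Because these values chose the genes, the direction of a listed gene is a description; what was examined further is which functions the genes have, how their values spread over the arrays, and how the changes with the 2 proteins compare.

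HEK293 is an established human embryonic kidney line. Every culture was transiently transfected with a plasmid, without further treatment, and its RNA was taken 72 h later, so all groups share the transfection and the line. AIRE, the autoimmune regulator, lets thymic epithelial cells transcribe many tissue-restricted genes; VP16 is a strong viral activation domain and MBD commonly stands for a domain that binds methylated CpG, but the labels spell out neither construct, nor its species, nor the share of cells that took it up. No group received an unrelated protein, so a response to Aire and MBD-VP16 in particular and a response to any expressed protein cannot be told apart. The labels call the replicates biological without saying how the cultures were separated, and the p-values reflect only the scatter among these 9 arrays. In such whole-culture RNA, a change in some cells and a smaller change in all cells cannot be told apart either.

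The median log2 value of an array was 6.52 to 6.56, and correlations across genes within a group were 0.990 to 0.995. Vector replicate 1 stood apart most: the SD of its residuals was 0.164, and that of the remaining arrays 0.111 to 0.138. The AIRE probe set read 6.66, 6.57 and 6.76 on the Aire arrays, 6.39, 6.67 and 6.52 on the MBD-VP16 arrays and 6.32, 6.52 and 6.46 on the vector arrays. The difference of Aire from vector, 0.23 ± 0.09 (SE), did not pass (limma adjusted p = 0.174). Nor did the pooled difference of 0.16 ± 0.08 (limma adjusted p = 0.219), so directions for Aire rest on the labels. MBD1 averaged 7.99 with Aire, 9.96 with MBD-VP16 and 8.19 with vector, a difference of −0.20 with Aire and 1.78 with MBD-VP16, and was no shared gene. Of 28 leukocyte markers 17 lay below the lower quartile of all clusters (5.16), CD3D, CD14 and LYZ among them, and 2 were shared rises; of 19 fibroblast and endothelial markers 10 lay below it, PECAM1 and VWF among them, and 5 were shared rises. The mean level of that second list was 5.34 to 5.42 with Aire, 5.37 to 5.50 with MBD-VP16 and 5.19 to 5.26 with vector, and its part in the matrix results below was not tested.

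In all, 2505 genes passed the pooled test, 14.1% of those tested, with 1011 higher (5.69%) and 1494 lower (8.41%). Both group means lay above every vector array for 2823 genes (15.9%) and below every one for 3411 (19.2%). The 899 shared rises were 5.06% of all genes and the 1478 shared falls 8.32%. Without vector replicate 1 the shared falls numbered 900, and without vector replicate 2 they numbered 982; the shared rises numbered 625 to 846 whichever array was left out; each such omission also takes a degree of freedom from the test. The share of higher genes among those called was 40.4%, or 32.9% after the array medians were set equal. In a stricter reading, all 6 transfected arrays were clear of all 3 vector arrays in 744 of the shared rises and 1374 of the shared falls. Of all genes, 6.39% lay wholly above and 10.8% wholly below. The same arrays chose the shared genes, so these counts largely follow from the definition and are no separate support. Just inside the threshold stood OR4C46 (0.21, adjusted p = 0.0499) and GUF1 (−0.25, adjusted p = 0.0499), and just outside it TNNT1 (0.28) and NUAK2 (−0.35).

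The shared changes were small. The median size was 0.34 log2 units for the rises and 0.36 for the falls, against 0.117 over all genes. In both comparisons with vector, which share the 3 vector arrays, 30 rises and 108 falls reached 1.5-fold and 2 rises and 16 falls reached 2-fold. The single comparison of each protein with vector passed on its own in both cases for 287 of the rises and 662 of the falls; MBD-VP16 alone passed for 364 and 539, Aire alone for 114 and 106, and neither for 134 and 171. Over all genes, Aire against vector called 2.47% higher and 4.58% lower, and MBD-VP16 against vector called 5.91% higher and 7.67% lower. On the single arrays, the median of the shared falls relative to the vector mean was −0.33 to −0.34 with Aire and −0.36 to −0.40 with MBD-VP16, against 0.07, −0.01 and −0.05 on vector replicates 1, 2 and 3. Vector replicate 1 was thus the highest array for the falling genes. For the shared rises these medians were 0.30 to 0.33 with Aire, 0.35 to 0.38 with MBD-VP16 and −0.01 to 0.01 with vector.

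Falls were commoner among genes with high vector signal. In the highest quartile of vector level 19.7% of genes were shared falls and 6.28% shared rises, in the third quartile 9.65% and 6.2%, in the second 3.08% and 5.49%, and in the lowest 0.854% and 2.27%. The median vector level was 8.15 for the falls, 7.01 for the rises and 6.54 for all genes. Below, the falls of several lists are also given within that highest quartile.

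The YAP and TEAD targets held the largest fall of all genes named here, that of ANKRD1. YAP is the transcriptional coactivator restrained by the Hippo kinase pathway, and it acts through the TEAD DNA-binding proteins on genes of matrix, adhesion and growth. ANKRD1, an ankyrin-repeat cofactor widely used as a readout of YAP, had levels of 8.15, 8.22 and 8.29 with Aire and 8.63, 8.77 and 8.77 with MBD-VP16, against 10.76, 10.85 and 10.84 with vector. No transfected array came near the vector arrays, and the pooled difference was −2.35 ± 0.06 (SE), a 5.08-fold fall (limma adjusted p = 1.4e-07). CCN2, which encodes connective tissue growth factor, read 7.59, 7.93 and 7.65 with Aire and 8.40, 8.43 and 8.47 with MBD-VP16, against 9.66, 9.55 and 9.50 with vector. It fell 2.81-fold (−1.49 ± 0.08; limma adjusted p = 2.08e-05), and the 3 groups did not overlap. CCN1, a second secreted CCN protein, fell 2.38-fold, to 7.52 ± 0.09 with Aire and 7.78 ± 0.10 with MBD-VP16, against 8.90 ± 0.04 with vector (SD, n = 3 each). MYOF, a membrane-repair ferlin, fell by 1.01 ± 0.06 log2 units (SE). Of 27 measured targets 12 (44.4%) were shared falls and 2 were shared rises. All 12 falls had every transfected array below every vector array, as did 1374 of all 1478 shared falls. The list's median pooled difference was −0.20, against 0.013 over all genes. The count of falls was 12 or 13 whichever array was left out. The genes for the factors themselves, looked up after the targets' values had been seen, differed little: YAP1 by 0.03 ± 0.05 (adjusted p = 0.765) and TEAD1 by −0.06 ± 0.06 (adjusted p = 0.554). TEAD4, a further member of the DNA-binding family, fell by 0.69 ± 0.07, while TEAD2 rose by 0.33 ± 0.06 and AMOT, an angiomotin that binds YAP, rose by 0.38 ± 0.09. WWC1 (KIBRA), an upstream Hippo protein that is also a YAP target, fell by 0.36 ± 0.06.

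The bases just upstream of the start of ANKRD1 and CCN2 are shown because these genes lead the falls of the YAP and TEAD list and carry the TEAD motif GGAATG, in capitals on either strand. They come from RefSeq (GRCh38.p14), are written 5′ to 3′ on the gene's own strand and end at the base before the start; ANKRD1 lies on the minus strand at chr10:90921088-90921337 and CCN2 on the minus strand at chr6:131951373-131951622.
ANKRD1: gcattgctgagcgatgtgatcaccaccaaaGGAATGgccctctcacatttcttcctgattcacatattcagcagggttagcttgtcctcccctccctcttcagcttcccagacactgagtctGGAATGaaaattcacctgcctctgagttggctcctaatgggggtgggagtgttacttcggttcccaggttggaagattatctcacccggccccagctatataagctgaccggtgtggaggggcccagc
CCN2: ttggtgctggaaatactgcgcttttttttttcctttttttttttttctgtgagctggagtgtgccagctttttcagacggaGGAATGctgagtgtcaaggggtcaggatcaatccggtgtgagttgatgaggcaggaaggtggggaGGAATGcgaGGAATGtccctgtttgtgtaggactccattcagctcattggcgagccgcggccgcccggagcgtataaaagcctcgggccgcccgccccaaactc
ANKRD1 holds 2 copies and CCN2 holds 3. In windows of 300 bases (250 before and 50 from the start), 3 of the 9 list falls with a RefSeq promoter held the motif, against 11.7% of tested genes with a promoter, 11.5% of all shared falls and 14.0% of all RefSeq promoters. List genes that did not fall were not counted apart, so whether this share is particular to the falls was not tested. These matches describe letters in the window and nothing about binding.

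**Figure D1:**
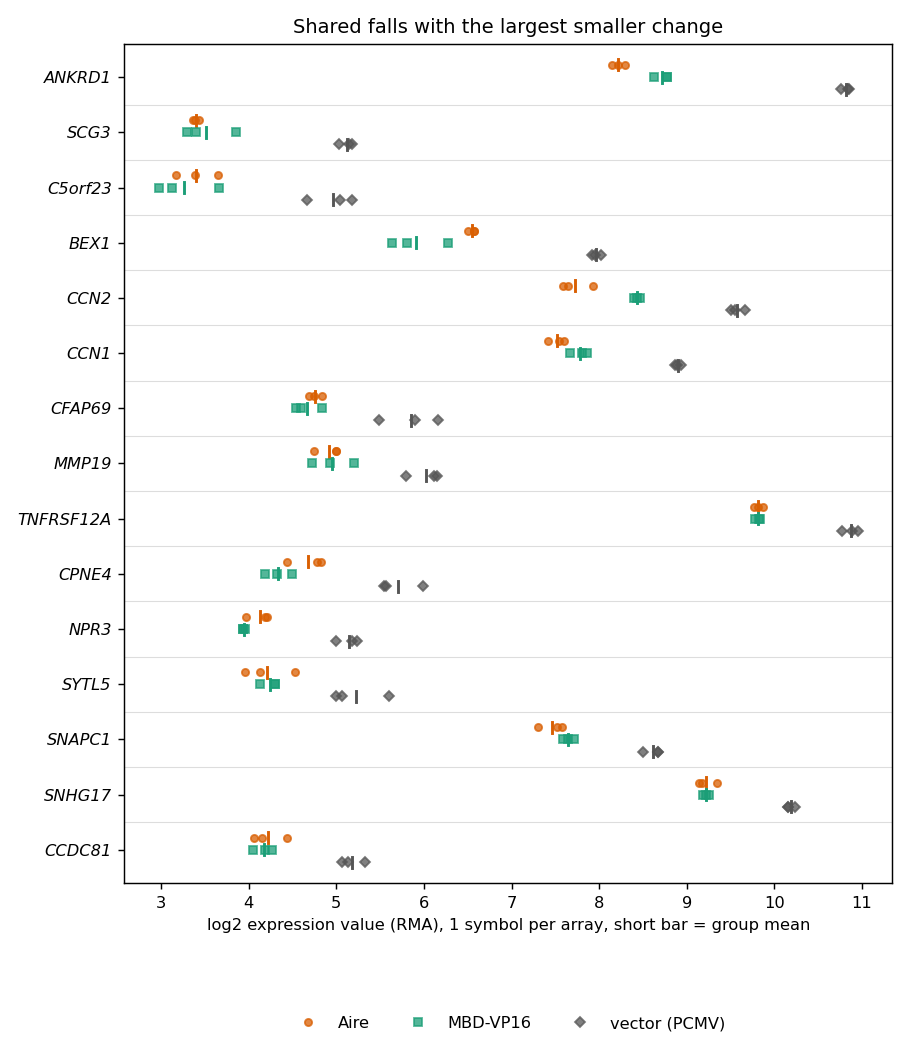
Log2 expression value (RMA, horizontal axis) of the 15 shared falls with the largest smaller change, 1 symbol per array and a short bar at each group mean, with Aire above MBD-VP16 above vector in each gene's band. ANKRD1 stands lowest against vector, at 8.15 to 8.77 on the 6 transfected arrays and 10.76 to 10.85 on the vector arrays, and no gene shown has a transfected array reaching a vector array.

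Besides these targets, the 15 falls with the largest smaller change covered several functions. SCG3, a secretogranin of neuroendocrine granules, read 3.39, 3.36 and 3.43 with Aire and 3.86, 3.40 and 3.29 with MBD-VP16, against 5.15, 5.03 and 5.18 with vector, a 3.17-fold fall. The transfected arrays all lay well below the vector arrays and in the dim lowest quartile of levels. TNFRSF12A, the receptor for the cytokine TWEAK, stood at 9.81, 9.87 and 9.77 with Aire and 9.84, 9.78 and 9.82 with MBD-VP16, against 10.77, 10.95 and 10.89 with vector. The 2 proteins gave the same 2.08-fold fall to within 0.01 log2 units of each other. SNAPC1, a subunit of the complex that starts transcription of small nuclear RNA genes, read 7.52, 7.58 and 7.30 with Aire and 7.59, 7.64 and 7.71 with MBD-VP16, against 8.67, 8.67 and 8.50 with vector. Its fall of 1.06 ± 0.08 log2 units (SE) was 2.08-fold. NPR3, the natriuretic peptide clearance receptor, fell by 1.11 ± 0.08, and NPPB, which encodes a natriuretic peptide, by 0.87 ± 0.11. The small nucleolar RNA host gene SNHG17 fell by 0.96 ± 0.06 and the metalloproteinase gene MMP19 by 1.09 ± 0.12. The remaining symbols of this set were C5orf23, BEX1, CFAP69, CPNE4, SYTL5 and CCDC81, at −0.98 to −1.74. The clusters for C5orf23 and NPR3 both lie on chromosome 5, and whether they read 1 locus was not tested.

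Ribosome biogenesis genes gave the most complete fall of any list. Their products transcribe, cut, modify and assemble ribosomal RNA in the nucleolus, a task tied to cell growth. Of 38 measured genes 30 (78.9%) were shared falls and none was a shared rise, all 38 had a negative pooled difference, and the median was −0.35; the list was not tested as a set. In all 30 falls, all 6 transfected arrays lay below all 3 vector arrays, as in 1374 of all 1478 shared falls. Of the 26 genes in the highest quartile of vector level 23 (88.5%) were shared falls, where 19.7% of all genes in that quartile were. The mean level over the list was 8.02, 8.01 and 7.97 with Aire and 7.97, 7.95 and 7.97 with MBD-VP16, against 8.40, 8.36 and 8.34 with vector. Leaving out single arrays gave 23 to 28 falls, with 25 without vector replicate 1.

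RRP12, a factor for export and maturation of pre-ribosomes, read 6.77, 6.81 and 6.85 with Aire and 6.69, 6.65 and 6.57 with MBD-VP16, against 7.48, 7.41 and 7.52 with vector. It had the largest fall of the list, 1.68-fold (−0.75 ± 0.06, SE; limma adjusted p = 1.14e-04). DDX21, a nucleolar RNA helicase, read 9.10, 9.12 and 9.18 with Aire and 9.07, 9.11 and 9.13 with MBD-VP16, against 9.74, 9.80 and 9.70 with vector. Both proteins brought it to about the same level, a 1.55-fold fall. NOP58, a core protein of the C/D box small nucleolar particles, fell 1.57-fold, and NOP2, an RNA methyltransferase, 1.42-fold. The 8 genes that did not pass, named here after their values were seen, were GRWD1, RRP1B, NPM1, GNL3L, BOP1, NAT10, POLR1A and FBL, at −0.03 to −0.19. The RNA polymerase I subunits were split, with POLR1B (−0.40) and POLR1C (−0.34) among the falls and POLR1A (−0.05 ± 0.07, adjusted p = 0.685) not. Genes for the ribosomal proteins themselves stood apart: of 75 measured, none was a shared fall, and the median was 0.028. Their median vector level was 12.17, with the highest at 13.42, against a median of 8.365 for ribosome biogenesis. The part of this difference in level was not tested. RPL36AL, RPS29 and RPL22 were shared rises at 0.25 to 0.29. Each of the calls for RPS29 and RPL22 was lost when any 1 of at least 7 arrays was left out.

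MYC, a factor known to drive ribosome biogenesis through E-boxes, did not pass (−0.14 ± 0.08, adjusted p = 0.280; looked up after the list's values were seen). The E-box CACGTG, its own reverse complement, was present in the 300-base window of 10 of the 24 list falls with a RefSeq promoter (41.7%), against 9.07% of tested genes, 14.7% of all shared falls, 7.93% of all shared rises and 7.43% of all RefSeq promoters. The bases before the start are shown for the 2 falls of lowest adjusted p that carry it there, UTP20 (plus strand, chr12:101279855-101280104) and UTP4 (plus strand, chr16:69132399-69132648), both components of the particle that processes small-subunit ribosomal RNA, with the E-box in capitals.
UTP20: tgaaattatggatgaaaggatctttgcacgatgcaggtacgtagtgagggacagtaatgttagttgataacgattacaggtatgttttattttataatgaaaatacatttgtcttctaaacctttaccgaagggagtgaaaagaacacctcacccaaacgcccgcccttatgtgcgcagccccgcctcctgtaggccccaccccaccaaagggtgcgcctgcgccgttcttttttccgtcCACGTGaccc
UTP4: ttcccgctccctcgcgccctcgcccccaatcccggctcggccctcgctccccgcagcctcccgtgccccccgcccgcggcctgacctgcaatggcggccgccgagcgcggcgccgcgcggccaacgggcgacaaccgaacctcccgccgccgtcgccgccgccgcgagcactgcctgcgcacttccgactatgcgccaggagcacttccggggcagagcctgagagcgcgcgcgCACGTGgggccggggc
The 2 genes fell by 0.64 and 0.59 log2 units. The E-box lies close to the start in both. The list was chosen by function, and its genes that did not fall were not counted apart. Whether the E-box share is particular to the falls was therefore not tested, and a match describes letters only.

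**Figure D2:**
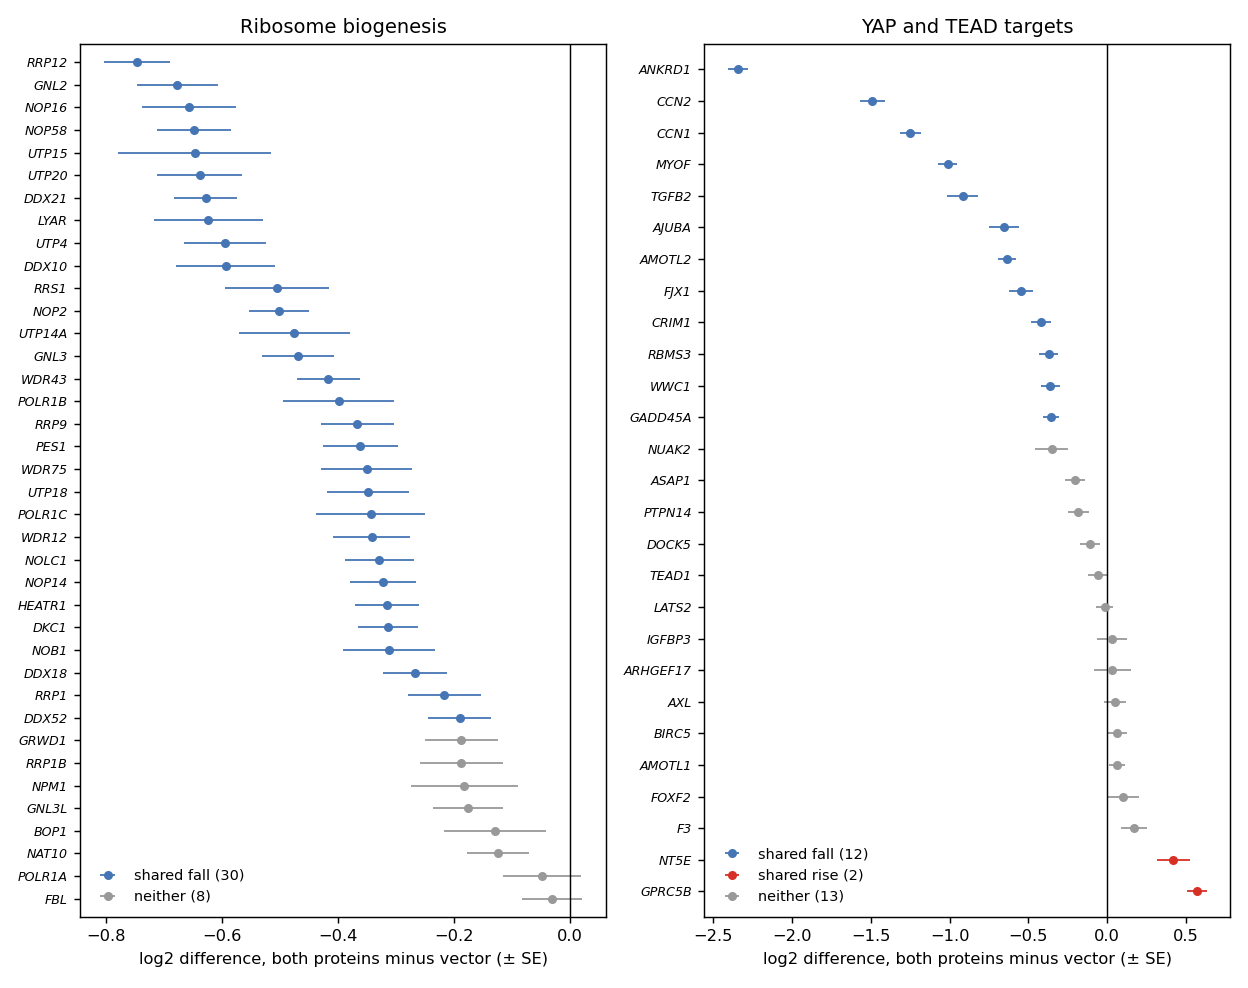
Pooled log2 difference (mean of both proteins minus vector, horizontal axis, with its SE from the fit) for every measured gene of the ribosome biogenesis list and of the YAP and TEAD target list. All 38 ribosome biogenesis genes lie left of 0 and 30 of them are shared falls, whereas the 27 YAP and TEAD targets spread from −2.35 for ANKRD1 to the 2 shared rises.

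Small nucleolar RNAs, which guide the chemical modification of ribosomal RNA, held more shared falls than rises, and most of them did not pass. They are counted by class. Of 126 measured, 25 (19.8%) were shared falls and 2 were shared rises, against 8.71% shared falls among protein-coding genes, and 97 had a negative difference (median −0.30). The falls comprised 15 of 66 C/D box RNAs and 10 of 58 H/ACA RNAs, and ranged from −0.33 to −1.94. Every transfected array lay below every vector array in 20 of 25, against 1374 of all 1478 shared falls. The median level of the 25 was 6.67, 6.65 and 6.51 with Aire and 6.66, 6.35 and 6.35 with MBD-VP16, against 7.30, 7.24 and 7.09 with vector. Most of these RNAs are cut from introns of host genes, and array probes in an intron can read the host transcript too; the host genes' part was not tested.

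Genes for copying DNA held many shared falls, and genes for cell division held 1. Of 53 measured genes for DNA replication and its licensing 18 (34.0%) were shared falls and 1, GINS4, was a shared rise (median −0.15; 44 below 0). MCM6, a subunit of the replicative helicase, read 8.89, 8.86 and 8.83 with Aire and 8.95, 9.02 and 8.90 with MBD-VP16, against 9.41, 9.27 and 9.27 with vector. The groups were clear of each other, with a 1.33-fold fall. CDT1, which loads that helicase, fell by 0.40 ± 0.06 (SE) and UNG, the uracil glycosylase, by 0.44 ± 0.07, while GINS4, a helicase cofactor, rose by 0.44 ± 0.06. Of the 41 list genes in the highest quartile of vector level 16 (39.0%) were shared falls, against 19.7% in that quartile. Without vector replicate 1 the list held 12 falls. Of 46 mitotic genes, 3 were shared rises and 1 a shared fall (median 0.079; 36 above 0). TOP2A, the topoisomerase of dividing cells, and AURKB, a mitotic kinase, rose by 0.27 ± 0.06 and 0.29 ± 0.06, and PLK1, a further mitotic kinase, by 0.32 ± 0.07. The phosphatase gene CDC25A fell by 0.35 ± 0.08. The calls for PLK1, TOP2A and CDC25A were each lost without 1 or more of the vector arrays. The mitotic count was 6 rises without vector replicate 1 and 7 after a repeated quantile normalization.

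Splicing factor genes held shared falls only. Of 33 measured 12 (36.4%) were shared falls, none was a shared rise and 32 lay below 0 (median −0.15), against 19.7% in the highest quartile of vector level, which held 32 of the 33. TRA2A, a splicing activator, read 10.23, 10.26 and 10.16 with Aire and 10.20, 10.23 and 10.19 with MBD-VP16, against 10.79, 10.71 and 10.55 with vector. CLK4, a kinase of splicing factors, fell by 0.50 ± 0.08 (SE), PRPF3, a protein of the spliceosome, by 0.49 ± 0.08 and SRSF4, an SR protein, by 0.40 ± 0.06. The list held 8 falls without vector replicate 1. With all clusters of a gene averaged, CLK4 (−0.29, adjusted p = 0.113) and TRA2A (−0.25, adjusted p = 0.0716) were no longer called by limma. Of 34 genes for transcription and 3′ processing of small nuclear RNAs 8 were shared falls, with the integrator subunits INTS12 (−0.65 ± 0.10) and INTS13 (−0.45 ± 0.08) and ZC3H8 (−0.46 ± 0.06) besides SNAPC1, and 1 was a shared rise. Without any 1 of vector replicates 1 and 2 and MBD-VP16 replicates 1 and 2 it held 5 falls. Mediator, the bridge between activators and RNA polymerase II, held 7 falls and 1 rise of 30, with MED8 (−0.44), CDK8 (−0.35), MED15 (−0.30) and MED13L (−0.30) named by rule, and Polycomb and trithorax genes 7 falls and 2 rises of 38. Without vector replicate 1 each of these lists held 3 falls, and without vector replicate 2 they held 4 and 3. Within the highest quartile of vector level the falls were 6 of 20 for the small nuclear RNA list, 6 of 21 for Mediator and 6 of 19 for the Polycomb and trithorax list, against 19.7% of all genes there. Of 36 proteasome subunits 7 were shared falls, PSMD7 (−0.41), PSMD11 (−0.36), PSMD1 (−0.32) and PSMD14 (−0.27) among them, and none rose; within the highest quartile these were 7 of 30 (23.3%), near the 19.7% of all genes there.

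Zinc finger genes named ZNF, many of which encode DNA-binding repressors, held 56 shared falls and 12 shared rises of 457, with a median of −0.05. The shares were 12.3% and 2.63%, against 8.32% and 5.06% of all genes. Within the highest quartile of vector level 15 of 76 ZNF genes (19.7%) were shared falls, the share of all genes there being 19.7% too. ZNF256 and ZNF461, both on chromosome 19, fell by 0.67 ± 0.08 and 0.51 ± 0.06 (SE). ZNF703 rose by 0.59 ± 0.06. The pooled rise of ZNF750 was 1.98 ± 0.09, but its change was 3.42 larger with MBD-VP16 than with Aire. The change of ZNF750 with Aire did not pass on its own, and its pooled call was lost with the 2 proteins as 1 group in the fit. The list held 29 falls without vector replicate 1 or 2, 34 without Aire replicate 3 and 37 without Aire replicate 2 or MBD-VP16 replicate 3. Of 23 circadian clock genes 6 (26.1%) were shared falls and none rose, with 6 or 7 falls whichever array was left out. Within the highest quartile of vector level 1 of 7 clock genes (14.3%) was a shared fall. BMAL1, the activator at the core of the clock, read 6.39, 6.35 and 6.43 with Aire and 6.58, 6.39 and 6.39 with MBD-VP16, against 7.01, 7 and 6.90 with vector. The repressor CRY1 fell by 0.42 ± 0.06, the output regulator HLF by 0.54 ± 0.09 and BHLHE41, a repressor of clock genes, by 0.45 ± 0.09.

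Most stress and signalling lists held more shared falls than shared rises, as did all genes (8.32% falls and 5.06% rises). Immediate early genes are switched on within minutes by growth factors or stress, and 8 of 29 (27.6%) were shared falls and 1 was a shared rise (median −0.12). DUSP1, a phosphatase that turns off MAP kinases, read 8.79, 8.84 and 8.76 with Aire and 8.56, 8.77 and 8.70 with MBD-VP16, against 9.73, 9.61 and 9.57 with vector. It fell 1.87-fold, to similar levels with both proteins. HBEGF, an EGF receptor ligand, fell by 0.69 ± 0.10 (SE), ATF3 by 0.59 ± 0.05 and JUNB by 0.54 ± 0.06. EGR1, by contrast, was called in the pooled test but not shared, at 8.10, 7.93 and 7.96 with Aire and 9.13, 9.15 and 9.09 with MBD-VP16, against 8.96, 9.02 and 8.96 with vector. It lay below vector with Aire alone and is named after its values were seen. Of 29 genes of NF-kB, a transcription factor family of inflammation, 6 were shared falls and none rose. The subunit genes NFKB1 and NFKB2 fell by 0.66 ± 0.10 and 0.46 ± 0.08, the inhibitor gene NFKBIB by 0.46 ± 0.10 and the target BIRC3, an inhibitor of apoptosis, by 0.74 ± 0.15. Of 21 targets of TGF-beta and BMP 5 were shared falls, ID1 (−0.34) and TGFBI (−0.59) among them, with 3 without vector replicate 1 and 2 without vector replicate 2. Few genes of these lists lay in the highest quartile of vector level, where 19.7% of all genes fell. There the falls were 5 of 9 for immediate early genes, 0 of 5 for NF-kB and 4 of 8 for TGF-beta and BMP.

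PPP1R15A (GADD34), which lets translation resume after stress, read 9.28, 9.34 and 9.30 with Aire and 9.18, 9.10 and 9.18 with MBD-VP16, against 10.30, 10.23 and 10.24 with vector. Its 2.04-fold fall was the largest among the unfolded protein response genes, of which 4 of 26 were shared falls and 1, PDIA4, was a shared rise. Genes of ATF4, the factor of the amino acid response, held 9 shared falls and 1 rise of 31 (29.0% and 3.23%; median −0.10). SLC3A2, a heavy chain of amino acid transporters, fell by 0.74 ± 0.05, CTH, an enzyme of cysteine synthesis, by 0.58 ± 0.09, and the tRNA synthetase genes CARS1 and GARS1 by 0.43 ± 0.07 and 0.40 ± 0.06. The list held 5 falls without vector replicate 2. Of 26 heat shock proteins and co-chaperones 7 were shared falls and 2 were shared rises, with 6 or 7 falls whichever array was left out. HSPB8, a small heat shock protein, read 6.90, 6.93 and 7.07 with Aire and 7.04, 7.07 and 7.05 with MBD-VP16, against 8.12, 7.81 and 7.83 with vector, and its partner BAG3 fell by 0.29 ± 0.05. Neither of the 2 rises was called without vector replicate 3. Of 24 targets of NRF2, the antioxidant regulator, 7 were shared falls and 2 were shared rises; HMOX1, the haem oxygenase, fell by 0.60 ± 0.10 and GCLC, of glutathione synthesis, by 0.46 ± 0.08, while PGD, of the pentose phosphate pathway, rose by 0.30 ± 0.05. That list held 3 falls without Aire replicate 1, 4 without any 1 of 6 other arrays and 5 without vector replicate 1. Within the highest quartile of vector level, where 19.7% of all genes fell, the falls were 4 of 18 (22.2%) for the unfolded protein response, 8 of 24 (33.3%) for ATF4, 6 of 19 (31.6%) for heat shock and 5 of 14 (35.7%) for NRF2. Targets of p53 were split evenly, with 5 falls and 5 rises of 28. CDKN1A (p21), the cell cycle inhibitor, rose by 0.51 ± 0.06 and TP53INP1 by 0.53 ± 0.06, while PLK2 fell by 0.57 ± 0.07 and AEN, a nuclease, by 0.61 ± 0.08; without vector replicate 1 or 2 there were 3 falls.

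**Figure D3:**
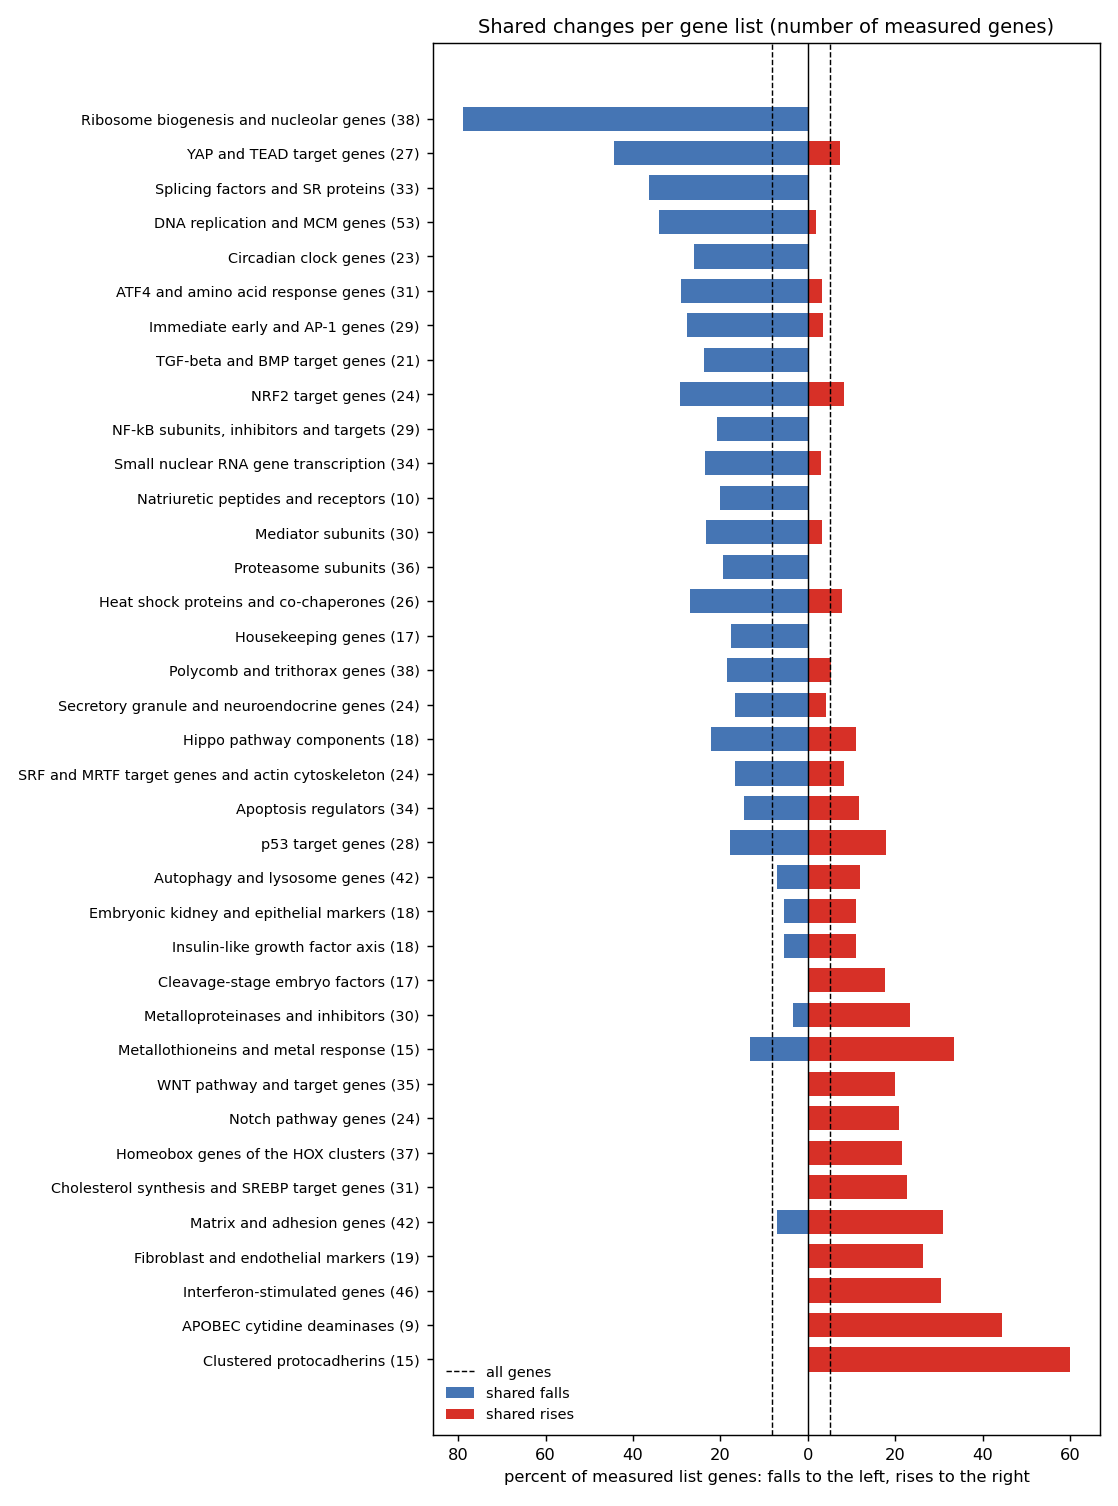
Percent of the measured genes of each list that were shared falls (bars to the left) or shared rises (bars to the right), with the number of measured genes in brackets and dashed lines at the values for all genes, 8.32% and 5.06%. Lists are shown where either share was at least 2 times that of all genes, a choice made after the values were seen; ribosome biogenesis leads the falls at 78.9% and the clustered protocadherins lead the rises at 60%.

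The leading shared rises held genes for the cell surface, the matrix and the response to interferon. Those with the largest smaller change included IFIT1, TMT1A, PCDHB8, SEMA6A, NREP, TMSB15A, PCDHB11, VCAN, PCDHB13, INPP5D, GPC3, S100A4, APOBEC3B and COL14A1. TMT1A, a thiol methyltransferase, read 7.22, 7.33 and 7.27 with Aire and 7.07, 7.23 and 7.53 with MBD-VP16, against 6.48, 5.83 and 5.91 with vector. Its rise was 2.30-fold with either protein, and TMT1A and IFIT1 were the 2 genes that reached 2-fold in both comparisons. SEMA6A, a transmembrane guidance cue, read 6.22, 6.33 and 6.50 with Aire and 6.58, 6.38 and 6.49 with MBD-VP16, against 5.38, 5.62 and 5.43 with vector. GPC3, a cell-surface proteoglycan, rose by 1.02 ± 0.11 log2 units (SE), INPP5D, an inositol phosphatase best known in blood cells, by 0.78 ± 0.08, and the calcium-binding gene S100A4 by 0.76 ± 0.11. The cluster for NREP is annotated as open to cross-hybridisation. PCDHB8 had a spread of 0.61 (SD) over the vector arrays, which read 5.05, 4.48 and 3.83.

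**Figure D4:**
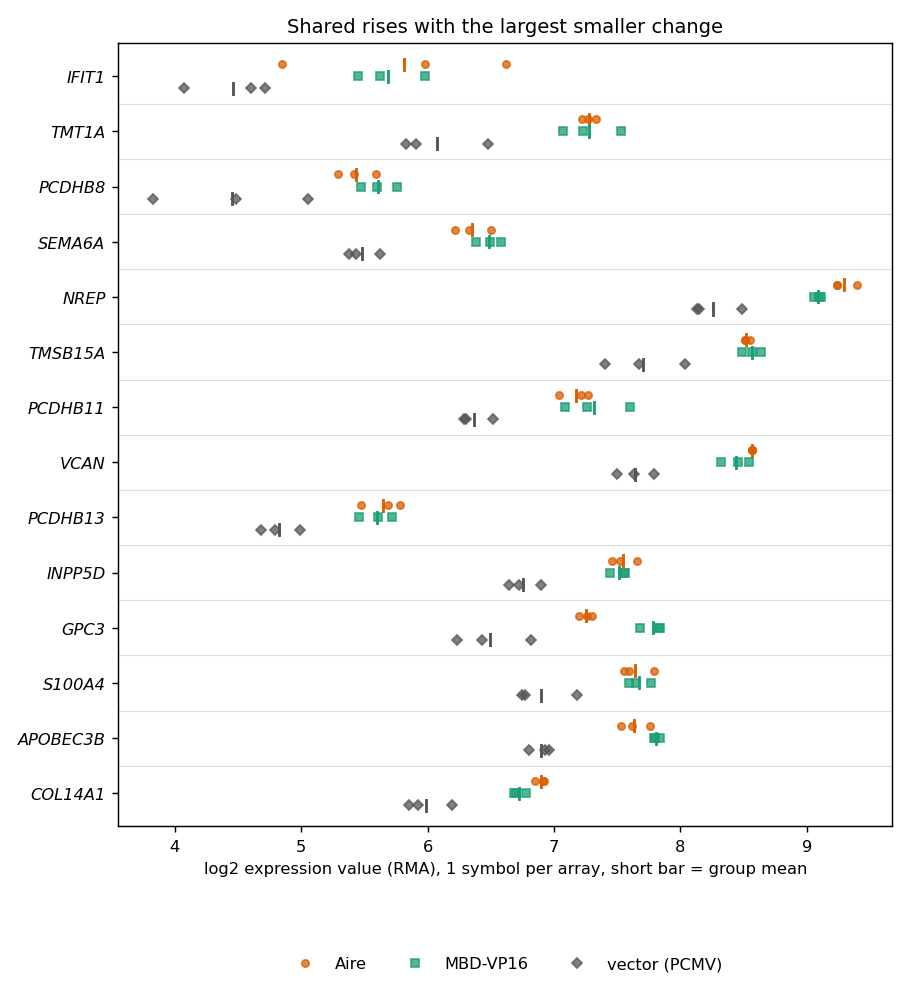
Log2 expression value (RMA, horizontal axis) of 14 shared rises with the largest smaller change, 1 symbol per array and a short bar at each group mean, with Aire above MBD-VP16 above vector in each gene's band. The rises are smaller than the falls and the vector arrays spread more; for IFIT1 the Aire arrays range from 4.85 to 6.62 and the vector arrays from 4.07 to 4.71.

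The beta protocadherins, homophilic adhesion proteins encoded in 1 cluster on chromosome 5 and known for giving neurons surface identities, rose most completely. Of 15 measured clustered protocadherins 9 (60%) were shared rises, none was a shared fall and all 15 lay above 0 (median 0.60: 0.38 with Aire and 0.80 with MBD-VP16). PCDHB13 read 5.47, 5.78 and 5.69 with Aire and 5.72, 5.46 and 5.61 with MBD-VP16, against 4.99, 4.68 and 4.79 with vector. PCDHB11 read 7.04, 7.27 and 7.21 with Aire and 7.26, 7.09 and 7.6 with MBD-VP16, against 6.30, 6.29 and 6.52 with vector. Both were clear of vector on all 6 arrays. So were 6 of the 9 shared rises of the list, these 2 included, against 744 of all 899 shared rises. PCDHB2 rose by 0.79 ± 0.10 (SE) and PCDHB7 by 0.60 ± 0.08, PCDHB7 more with MBD-VP16 (difference 0.41, limma adjusted p = 0.047). The members are close in sequence, so signals of neighbouring genes may be shared. The list held 6 rises without vector replicate 2.

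Interferon-stimulated genes, the antiviral set switched on by interferons and by sensed nucleic acid, held 14 shared rises and no shared fall of 46 (30.4%; median 0.17). BST2 (tetherin), which holds budding viruses at the cell surface, read 7.35, 6.92 and 7.10 with Aire and 7.31, 7.49 and 7.48 with MBD-VP16, against 6.37, 6.29 and 6.52 with vector. IFI6, an inhibitor of viral replication, read 7.98, 7.71 and 7.69 with Aire and 7.62, 7.72 and 7.74 with MBD-VP16, against 7.14, 6.90 and 6.98 with vector. All transfected arrays lay above all vector arrays for both genes, which rose 1.84-fold and 1.67-fold. IFITM1, a membrane protein that blocks viral entry, read 8.49, 8.34 and 8.29 with Aire and 9.26, 9.17 and 9.37 with MBD-VP16, against 7.80, 7.92 and 7.79 with vector. It rose with both proteins, and by 0.89 more with MBD-VP16 (limma adjusted p = 3.1e-04). LGALS3BP, a secreted glycoprotein, rose by 0.38 ± 0.06 (SE). IFIT1, an RNA-binding effector, had the largest pooled rise of the list, 1.29 ± 0.32, and the least certain: it read 6.62, 5.98 and 4.85 with Aire and 5.45, 5.98 and 5.62 with MBD-VP16, against 4.71, 4.60 and 4.07 with vector, and its call was lost when any 1 of 6 arrays was left out. The list held 9 rises without vector replicate 2.

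The bases before the start of IFITM1 (plus strand, chr11:313790-314039) are shown as an example of the interferon-stimulated response element, searched on both strands as GAAA, any 2 bases and GAAA again, and set in capitals; it is the rise of the list with the lowest adjusted p that carries it there.
IFITM1: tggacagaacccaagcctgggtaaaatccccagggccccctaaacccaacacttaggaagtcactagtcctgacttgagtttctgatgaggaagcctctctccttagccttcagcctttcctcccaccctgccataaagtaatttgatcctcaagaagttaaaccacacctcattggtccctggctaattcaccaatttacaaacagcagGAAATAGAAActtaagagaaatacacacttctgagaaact
Of 13 list rises with a RefSeq promoter 11 (84.6%) held this motif in the 300-base window, against 2.91% of tested genes, 4.19% of all shared rises, 2.58% of all shared falls and 3.65% of all RefSeq promoters. The list was chosen by function, and its genes that did not rise were not counted apart, so whether this share is particular to the rises was not tested. A match describes letters in the window only.

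The APOBEC cytidine deaminases, which edit viral and cellular DNA, held 4 shared rises (44.4%, against 5.06% of all genes) and no fall of 9. APOBEC3B read 7.53, 7.76 and 7.62 with Aire and 7.80, 7.84 and 7.79 with MBD-VP16, against 6.96, 6.80 and 6.93 with vector, and APOBEC3H read 6.23, 6.14 and 6.28 with Aire and 6.11, 6.2 and 6.22 with MBD-VP16, against 5.49, 5.40 and 5.44 with vector. Both were clear of vector on every array, at 1.77-fold and 1.69-fold. APOBEC3F and APOBEC3D rose by 0.48 ± 0.09 and 0.43 ± 0.08 (SE). These genes are neighbours of similar sequence on chromosome 22. The list held 4 or 5 rises whichever array was left out.

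Extracellular matrix and adhesion genes held 13 shared rises and 3 shared falls of 42 (31.0% and 7.14%; median 0.14). VCAN, the proteoglycan versican, read 8.57 on all 3 Aire arrays and 8.32, 8.54 and 8.46 with MBD-VP16, against 7.79, 7.63 and 7.50 with vector, a 1.82-fold rise. FN1 (fibronectin) read 9.62, 9.70 and 9.67 with Aire and 9.55, 9.52 and 9.55 with MBD-VP16, against 9.26, 9.03 and 8.95 with vector, a 1.44-fold rise. COL12A1 and CD44, the hyaluronan receptor, moved the other way, by −0.66 ± 0.07 and −0.46 ± 0.06 (SE). The list held 6 rises without vector replicate 2 or 3, 7 without Aire replicate 3 or MBD-VP16 replicate 3, and 8 without Aire replicate 1. Among metalloproteinases and their inhibitors, which remodel that matrix, 7 of 30 (23.3%) were shared rises and 1, MMP19, was a shared fall. MMP2, a gelatinase, rose by 0.63 ± 0.09, MMP14, its membrane-bound activator, by 0.48 ± 0.05, and TIMP2, which binds both, by 0.56 ± 0.06 (0.34 with Aire and 0.78 with MBD-VP16). The value for TIMP2 was 0.23 with its clusters averaged, and not called (limma adjusted p = 0.123).

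The WNT, Notch and HOX lists held shared rises and no shared fall. Of 35 WNT genes 7 were shared rises and none fell: WNT5A, a non-canonical ligand, rose by 0.66 ± 0.08 (SE), the antagonist gene SFRP1 by 0.50 ± 0.06 (0.23 with Aire and 0.77 with MBD-VP16), and TCF7L2 and TCF7L1, DNA-binding partners of beta-catenin, by 0.42 ± 0.06 and 0.32 ± 0.07. WNT5A read 6.31, 6.36 and 6.23 with Aire and 6.27, 6.09 and 6.34 with MBD-VP16, against 5.67, 5.69 and 5.47 with vector. Of 24 Notch genes 5 rose and none fell: the ligand genes JAG1 and DLL1 rose by 0.53 ± 0.06 and 0.71 ± 0.08, the receptor gene NOTCH1 by 0.38 ± 0.06 and NRARP, a feedback inhibitor, by 0.29 ± 0.07. DLL1 rose by 0.98 more with MBD-VP16 than with Aire (limma adjusted p = 2.9e-04). The Notch list held 3 rises without vector replicate 2. The calls for SFRP1, TCF7L1, DLL1 and NRARP were lost with the 2 proteins as 1 group in the fit. Of 37 HOX genes 8 were shared rises and none fell, and 4 of the 8 differed between the proteins, among them HOXC11 (0.09 with Aire and 1.23 with MBD-VP16) and HOXA5 (0.25 with Aire and 0.97 with MBD-VP16). With the 2 proteins as 1 group in the fit, 3 HOX calls were left. Cholesterol and fatty acid genes under SREBP control held 7 shared rises (22.6%) and no fall of 31. FADS2, a fatty acid desaturase, read 9.77, 9.67 and 9.68 with Aire and 9.67, 9.64 and 9.75 with MBD-VP16, against 9.14, 9.13 and 9.16 with vector, and SCD, a further desaturase, rose by 0.34 ± 0.06. The list held 2 rises without vector replicate 3 and 4 without Aire replicate 1. Of 15 metallothioneins and metal-response genes, which handle zinc and copper, 5 (33.3%) were shared rises and 2 (13.3%) were shared falls. MT1F rose by 0.53 ± 0.08, MT2A by 0.30 ± 0.07 and MT1X by 0.30 ± 0.05, and HMOX1 was among the falls. Without vector replicate 1 or 2 there were 3 rises.

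Several large lists lay near or below the background. None of 50 keratin-associated genes was shared, 3 of 253 olfactory receptor genes were shared rises and 2 were shared falls, at low signal where the array resolves little (median vector level 3.69), and 6 and 4 of 81 respiratory chain genes were shared rises and falls (as few as 3 and 1 with 1 array left out). The small list of kidney and epithelial markers lay above the background in rises (11.1%, against 5.06%). Housekeeping genes held 17.6% falls, against 8.32% of all genes, but their median vector level was high, at 9.34. In the highest quartile of vector level, from 7.9 up, 19.7% of all genes were shared falls. Of 17 housekeeping genes 3 were shared falls, ALAS1 (−0.44), TBP (−0.27) and GUSB (−0.25). The neuronal markers held 1 shared fall of 20, STMN4 (−0.44), and the kidney and epithelial markers 2 rises of 18, CDH1 (0.23 with Aire and 1.30 with MBD-VP16, its call lost with the 2 proteins as 1 group) and KRT19 (0.28), and 1 fall, KRT18 (−0.40), whose cluster is annotated as open to cross-hybridisation.

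MBD-VP16 was also set against Aire in the same fit, a difference that does not contain the vector arrays. Of all 17769 genes 317 passed, 1.78%, with 299 higher (1.68%) and 18 lower (0.101%) with MBD-VP16. Among the shared rises 91 passed (10.1%), 89 of them higher with MBD-VP16, and among the shared falls 11 passed (0.744%), 6 of them higher with MBD-VP16. The pooled test admits genes through a large change with MBD-VP16 alone, as for the 364 rises called with that protein only, so these counts are a description and not evidence that the shared rises differ from other genes. The median difference, MBD-VP16 minus Aire, was 0.04 for the rises and −0.04 for the falls. A p that misses the threshold does not show equal size. MBD-VP16 gave the larger change in 534 of the 899 rises and 998 of the 1478 falls, against 9661 of all 17769 genes.

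The 5 shared rises with the lowest p for that difference changed far more with MBD-VP16. RFPL4B, a ret finger protein-like gene, read 3.23, 3.59 and 3.53 with Aire and 7.83, 7.83 and 7.87 with MBD-VP16, against 3.11, 2.93 and 3.27 with vector. ZNF750, an epidermal differentiation factor, read 4.42, 4.67 and 4.34 with Aire and 8.04, 7.78 and 7.87 with MBD-VP16, against 4.14, 4.29 and 4.20 with vector. Their changes with Aire, 0.35 and 0.27, did not pass (limma adjusted p = 0.097 and 0.16). H3Y2, HAND1 and DPPA3 followed, at 0.39, 0.24 and 0.21 with Aire and 2.70, 1.93 and 1.94 with MBD-VP16. All 5 calls were lost with the 2 proteins as 1 group in the fit. In the other direction, the falls of ANKRD1, CCN2, SNHG12 and GADD45B were larger with Aire, by 0.50, 0.71, 0.40 and 0.47, and that of JUN was larger with MBD-VP16, at −0.08 with Aire and −0.44 with MBD-VP16. JUN met the definition of a shared fall although the change with Aire did not pass on its own (limma adjusted p = 0.52). Its call was lost without vector replicate 2, without vector replicate 3 and with the 2 proteins as 1 group.

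**Figure D5:**
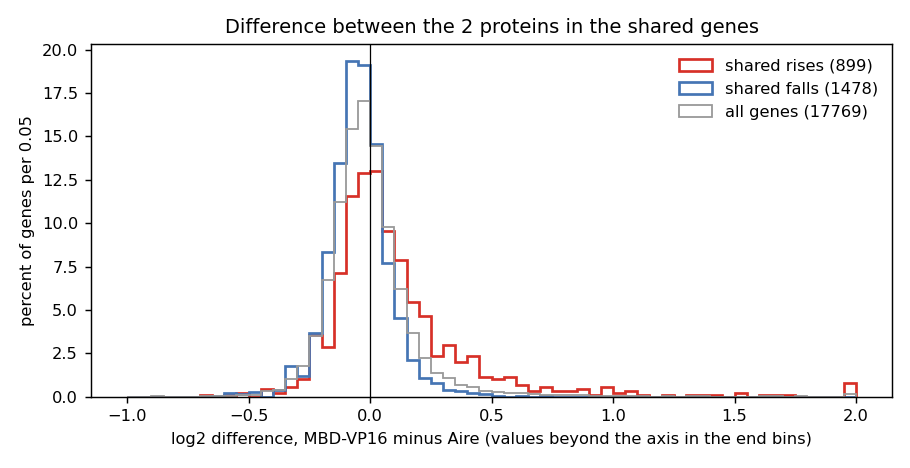
Distribution of the log2 difference MBD-VP16 minus Aire (horizontal axis, bins of 0.05, values beyond the axis in the end bins) for the 899 shared rises, the 1478 shared falls and all 17769 genes, as percent of genes (vertical axis). The shared falls lie around −0.04 with a narrow spread, and the shared rises have a tail to the right, where MBD-VP16 raised genes more.

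A further 128 genes passed the pooled test without being shared, 112 higher and 16 lower. Of these 110 passed with MBD-VP16 only, with median differences of 0.03 with Aire and 0.81 with MBD-VP16 over the 128, and 41 had opposite signs with the 2 proteins. Another 3857 genes had both means clear of vector without passing the pooled test, 1924 above and 1933 below. In the authors' deposited table, 203 of the shared rises and 538 of the shared falls had a false discovery rate under 0.05 in both of its comparisons with vector. That table rests on the same arrays: its log2 changes differed from those here by at most 0.01 (Aire) and 0.013 (MBD-VP16). These counts are therefore no independent support, and the same count over all genes was not made.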

How the data were processed

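RNA of 9 HEK293 cultures was measured on 9 arrays, 3 per group. The deposited log2 values had been normalized by the authors with RMA, per the submitters' processing notes; the sources used here give neither its version nor a genome build. Per the file headers, the deposited comparison table holds log2 fold changes and a false discovery rate (an adjusted p-value) per comparison; 9 further per-array columns of it were not used. Of 25679 clusters with values, 18683 had 1 gene symbol. These were fitted under R 4.3.3 by limma 3.58.1 (a linear model on 3 groups with empirical Bayes moderation, p-values adjusted by Benjamini-Hochberg over those clusters, threshold 0.05), and the brightest cluster stood for each of 17769 genes. The pooled contrast was the mean of Aire and MBD-VP16 minus vector. Scripts were tested on simulated data. The number of arrays limits the precision; the median SE of a pooled difference was 0.083 log2 units.

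The members and the 54 gene lists were chosen with earlier results of these data known. Genes were named by rule: the 15 shared genes per direction with the largest smaller change of the 2 proteins, up to 4 shared genes per list by adjusted p, up to 5 per direction with the lowest p for MBD-VP16 against Aire, and AIRE and MBD1. Other genes named, among them YAP1, TEAD1, MYC, EGR1, UTP20, UTP4, the POLR1 subunits and the markers, were chosen after their values were seen. Alternatives covered the model, the scaling, the clusters kept and each array left out. Replicate numbers did not pair the samples and no block entered the model. An item that the naming rule selects is not reported here.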

Additional observations from a re-analysis of the deposited data

Results flagged for a closer look

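Of the shared genes that passed the test of MBD-VP16 against Aire (limma adjusted p under 0.05; 91 rises and 11 falls), 11 are given here, the 5 rises with the lowest p and 6 of the falls. Values are MBD-VP16 minus Aire in log2 units. Among the rises the difference was 4.39 for RFPL4B, 3.42 for ZNF750, 2.31 for H3Y2, 1.73 for DPPA3 and 1.69 for HAND1. None of these 5 passed with Aire against vector (limma adjusted p of 0.097 for the lowest, RFPL4B), and all 5 pooled calls were lost with the 2 proteins as 1 group in the fit. Among the falls it was 0.71 for CCN2, 0.50 for ANKRD1, 0.47 for GADD45B and 0.40 for SNHG12, whose falls were larger with Aire, and −0.64 for BEX1 and −0.36 for JUN, whose falls were larger with MBD-VP16.

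Clusters that carry several gene symbols or none entered no comparison above, and the same definition found 237 shared rises and 226 shared falls among them. Those with several symbols held 145 rises (5.72%) and 164 falls (6.47%) of 2535, and those with none held 92 (2.06%) and 62 (1.39%) of 4461.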

How the results depend on the processing

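The counts of called genes, shared rises and shared falls stayed within 1.5 times their main values under the changed models, scalings and cluster choices that were run; the exceptions follow. Leaving out single arrays gave 1665 to 2324 called genes, 625 to 846 shared rises and 900 to 1417 shared falls. The lowest count of falls came without vector replicate 1, where 850 of the 900 were also among the main 1478, and without vector replicate 2 the called genes numbered 1667 and the falls 982, 914 of them in the main set. Requiring both single comparisons to pass left 287 rises and 662 falls, and requiring 1.5-fold in both left 30 and 108, by construction. The genes that differed between the proteins among the shared ones numbered 102, and 50 to 118 with single arrays left out, the fewest without Aire replicate 3; the cause was not tested. The list counts under each alternative were added after seeing the data.

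After each group's mean was subtracted per gene, the residuals of same-numbered samples of different groups correlated at −0.07 to 0.17. Those of differently numbered samples correlated at −0.21 to 0.15, so the numbers are not taken to pair the samples. With the replicate number as a block, 2281 genes were called, 797 shared rises, 1333 shared falls and 73 shared genes that differed between the proteins.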

Other observations

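Other lists held small numbers of shared genes in both directions, where 5.06% of all genes were shared rises and 8.32% shared falls. Of 18 genes of the insulin-like growth factor axis 2 were shared rises and 1 was a shared fall, and of 34 apoptosis regulators 4 were shared rises and 5 were shared falls. Of 42 autophagy and lysosome genes 5 were shared rises and 3 were shared falls. Replication-dependent histone genes, which are copied into RNA in S phase, held 3 of each among 49, and without vector replicate 1 there were 1 rise and no fall. Of 31 hypoxia and glycolysis genes 2 were shared rises and 5 were shared falls, and 2 falls were called without vector replicate 2 or 3. Without vector replicate 2 there were 2 rises of autophagy genes, and 2 rises and 2 falls of apoptosis regulators.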
